A study of Mus musculus with 13 samples.

Results

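Mice given lipopolysaccharide (LPS) and CPD-4645 were compared with mice given LPS and vehicle, across every expressed gene and in both directions. The comparison used 9 of the 13 mice of the series, each sequenced as 1 library: 4 LPS-CPD-4645 mice and 5 LPS-vehicle mice, taken by their labels alone. All were male CD1 mice, an outbred stock with no engineered allele, aged 8 to 10 weeks. LPS from Salmonella enterica serotype typhimurium was injected into the peritoneum at 3 mg/kg at 0, 6 and 24 h. Each injection was followed, per the labels after 30 min, by CPD-4645 at 10 mg/kg under the skin, or by its vehicle of DMSO, Cremophor and saline. A longer delay also appears in the published description. The brains were collected at 28 h without perfusion, so blood left in the vessels was part of the material, and RNA was taken from a fraction enriched in brain vessels. The other 4 mice, sham-vehicle mice without LPS, share the fit, and their levels are printed as the unchallenged background. The series has no group with CPD-4645 and no LPS.

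CPD-4645 is an inhibitor of monoacylglycerol lipase (MAGL, gene symbol Mgll), the serine hydrolase that breaks down the endocannabinoid 2-arachidonoylglycerol. In the brain this reaction ends signalling at cannabinoid receptors and also releases arachidonic acid, the precursor of prostaglandins. LPS, a component of the outer membrane of Gram-negative bacteria, acts through Toll-like receptor 4, and in brain vessels it induces adhesion molecules, chemokines and the arrival of neutrophils and monocytes at the vessel wall.

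The 9 libraries held from 7813559 to 55133373 counts. LPS-vehicle mouse 3 was the shallowest and LPS-CPD-4645 mouse 1 the next. Levels are given as CPM, the counts of a gene relative to a library of fixed size after scaling by the trimmed mean of M values (TMM). They are not divided by gene length and are not compared between genes. The squared differences between 2 mice of a group averaged 9.82 to 51.01 times those of counting error, so all mice were treated as separate samples. The material held vessel cells and other brain cells: the 14 endothelial markers summed to 596 to 1180 CPM in LPS-vehicle and 688 to 925 CPM in LPS-CPD-4645 mice, and the 12 neuron markers to 9370 to 10200 and 10000 to 12400 CPM. Erythrocyte genes, mainly hemoglobins, summed to 711 to 1000 and 788 to 1270 CPM. Mitochondrial genes took 6.24% ± 0.839 (SD, n = 5) of counts in LPS-vehicle and 6.15% ± 1.72 (SD, n = 4) in LPS-CPD-4645 mice, a difference within the spread between mice (exact permutation test over 126 splits, two-sided p = 0.921).

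Under LPS, more genes were lower than higher with CPD-4645. Of 17285 genes tested, 725 were lower (4.19%) and 294 higher (1.7%) by at least 2-fold at an adjusted p of at most 0.05 (edgeR quasi-likelihood test, Benjamini-Hochberg adjustment). Only these genes are said to have fallen or risen, and all fold changes are log2 values of LPS-CPD-4645 over LPS-vehicle with their standard error (SE). The median over all genes was -0.02. In 12% of genes every LPS-CPD-4645 mouse was below every LPS-vehicle mouse, and in 11.1% every one was above. At an unadjusted p under 0.05, 22% of all genes were lower and 19.4% higher, and 52.2% of all fold changes were below 0. When a change of more than 2-fold was itself the tested hypothesis (glmTreat), 35 genes were lower and 30 higher.

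**Figure D1:**
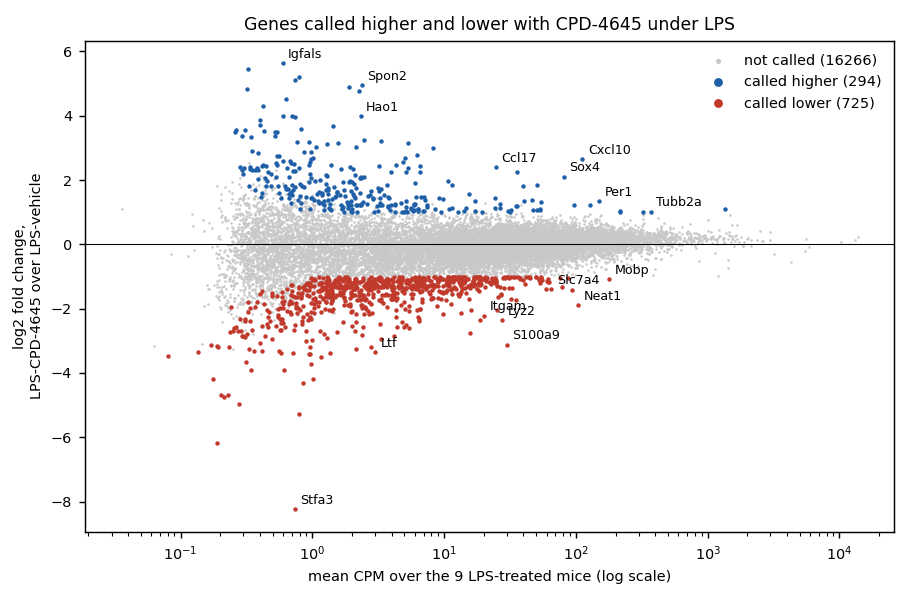
Log2 fold change of LPS-CPD-4645 over LPS-vehicle (vertical axis) against mean CPM over the 9 LPS-treated mice (horizontal, log scale), 1 point per gene tested. The 294 genes that rose are blue, the 725 that fell are red, and 16266 genes in grey were not called; the largest fold changes sit at low CPM.

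Raised and lowered genes were expressed at low levels. Genes that rose had a median of 0.867 CPM in LPS-vehicle, 2.88 CPM in LPS-CPD-4645 and 0.82 CPM in sham-vehicle mice. Genes that fell had medians of 4.28, 1.63 and 2.85 CPM, against 19.4, 18 and 18.3 CPM over all genes tested. Long noncoding RNAs made up 19.4% of raised and 21.2% of lowered genes against 9.16% of all, and pseudogenes 6.46%, 1.66% and 2.24%. The median exonic length was 2470 bases for raised, 3230 bases for lowered and 4030 bases for all genes, and the median GC content 49.9%, 49% and 49.7%. Of the raised genes 132 (44.9%), and of the lowered genes 410 (56.6%), differed by less than 0.5 on the log2 scale between LPS-vehicle and sham-vehicle mice, against 77.2% of all genes.

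Promoters of these genes were searched for short motifs, among them those of 2 factors that bear on the neutrophil, monocyte and glucocorticoid lists. PU.1 is a transcription factor of myeloid cells, and the glucocorticoid receptor is the nuclear receptor for corticosterone. RefSeq promoters of 12546 tested genes (250 bases before to 50 after the start, GRCm38.p6) were read on both strands. The PU.1 letters GAGGAAGT were in 6.73% of 505 promoters of genes that fell, 2.13% of 188 of genes that rose and 3.43% of all. The glucocorticoid element letters ACANNNTGT were in 12.2% of promoters of genes that rose, 6.53% of those that fell and 5.54% of all.

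Among the other motifs searched, the shares in raised, lowered and all promoters were 10.6%, 6.93% and 6.51% for the AP-1 letters TGANTCA, and 15.4%, 12.1% and 9.43% for the TATA box TATAAA. The interferon-stimulated letters GAAANNGAA were in 5.85%, 10.3% and 8.73%. The E-box CACGTG, which clock factors bind, was in 10.1%, 6.53% and 11%. The NF-kB letters GGGANTTCC were in 2.66%, 1.58% and 2.57%, and the cyclic AMP element TGACGTCA in 3.19%, 2.57% and 3.31%. These shares are descriptions without a test, and base composition was not matched between the sets.

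The 250 bases before the RefSeq start of 4 genes show where a match lies, 5′ to 3′ on the strand of the gene, with the match in capitals. The 4 genes were picked after their values were seen, from called list members that hold a match and whose groups did not overlap. Itga11, a collagen receptor subunit that fell, met the same conditions for the PU.1 letters and is not printed. Pycard, the adaptor of inflammasomes, lies on the minus strand (chr7:127993868-127994117), and Mmp8, a collagenase of neutrophil granules, on the plus strand (chr9:7558179-7558428). Both hold the PU.1 letters in reverse complement, starting 44 and 221 bases before the start, and both fell. Siglech, a sialic acid receptor of microglia (chr7:55767934-55768183), and Map3k6, a stress kinase (chr4:133240568-133240817), are on the plus strand, hold the glucocorticoid letters 202 and 179 bases before the start, and both rose.
Pycard: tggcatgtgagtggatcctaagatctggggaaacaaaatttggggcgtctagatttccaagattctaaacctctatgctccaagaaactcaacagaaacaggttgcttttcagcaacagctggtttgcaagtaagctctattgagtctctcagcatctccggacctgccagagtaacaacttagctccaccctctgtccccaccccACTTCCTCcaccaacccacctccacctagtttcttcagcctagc
Mmp8: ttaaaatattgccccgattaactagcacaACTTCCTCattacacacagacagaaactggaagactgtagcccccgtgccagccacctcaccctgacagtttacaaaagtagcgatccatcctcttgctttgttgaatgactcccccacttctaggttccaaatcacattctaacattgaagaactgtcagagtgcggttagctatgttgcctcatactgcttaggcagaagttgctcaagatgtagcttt
Siglech: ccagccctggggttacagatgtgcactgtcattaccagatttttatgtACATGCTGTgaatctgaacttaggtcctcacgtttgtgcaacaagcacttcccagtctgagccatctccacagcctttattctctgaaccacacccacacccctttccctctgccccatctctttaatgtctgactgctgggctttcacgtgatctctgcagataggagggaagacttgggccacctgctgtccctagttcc
Map3k6: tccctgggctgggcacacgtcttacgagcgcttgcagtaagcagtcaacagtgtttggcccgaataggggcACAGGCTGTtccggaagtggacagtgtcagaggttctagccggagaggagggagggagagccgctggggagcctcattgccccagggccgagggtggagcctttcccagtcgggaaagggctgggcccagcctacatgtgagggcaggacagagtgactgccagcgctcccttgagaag

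Of the lists, that of neutrophil markers had the highest share of genes that fell. Of 13 tested 10 fell (76.9%, against 4.19% of all genes) and 1 rose (7.69%, against 1.7%), and the median fold change was -2.90. The 10 were S100a8 and S100a9 (the subunits of calprotectin), Ltf (lactoferrin), Ngp and Camp (granule proteins), Mmp8, Retnlg (a resistin-like protein), Stfa2l1 (a stefin), and the receptors Cxcr2 (for CXC chemokines) and Csf3r (for granulocyte colony-stimulating factor). S100a9 was at 35.6, 113, 45, 24.6 and 28.9 CPM in LPS-vehicle mice 1 to 5 and at 8.38, 3.92, 1.77 and 9.34 CPM in LPS-CPD-4645 mice 1 to 4. The groups did not overlap, and the highest value belonged to LPS-vehicle mouse 2 (-3.12 ± 0.49, adjusted p = 1.86e-04). Sham-vehicle mice were at 1.23 CPM ± 0.719 (SD, n = 4). The LPS-CPD-4645 group was on average still above that level (log2 fold change over sham-vehicle of 2.15, against 5.26 for LPS-vehicle), though treated mouse 3 was near it at 1.77 CPM. In RNA from such a vessel fraction, fewer cells of a type, fewer of them kept in the isolation and less RNA per cell cannot be told apart.

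Ltf, which binds iron in neutrophil granules, was at 3.57, 11.5, 4.03, 3.61 and 2.21 CPM in LPS-vehicle mice and at 0.949, 0.28, 0.263 and 0.628 CPM in LPS-CPD-4645 mice. Again no treated mouse reached the lowest LPS-vehicle mouse, and mouse 2 was the highest (-3.35 ± 0.61, adjusted p = 6.26e-04, and -2.73 without it). Mmp8 went from 2.37, 8.84, 3.91, 3.15 and 4.44 CPM to 1.19, 0.595, 0 and 0.432 CPM (-3.18 ± 0.73, adjusted p = 0.00317). Cxcr2, which guides neutrophils along chemokine gradients, averaged 1.03 CPM ± 0.713 (SD, n = 5) and 0.0777 CPM ± 0.0729 (SD, n = 4) (-3.91 ± 0.84, adjusted p = 0.00198). Without LPS-vehicle mouse 2 the median of the list was -2.26, and the count of lowered neutrophil genes was 10 whichever mouse was left out.

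The 12 largest falls among coding genes were those of the stefins Stfa3, BC100530, Stfa2 and Stfa2l1, and of Cd177, Cxcr2, Ltf, Mmp8, Crp, Slfn1, Zfp985 and Ms4a4c. Of these Stfa2l1, Cxcr2, Ltf and Mmp8 were in the neutrophil list. Stfa3 had 0 counts in all 4 LPS-CPD-4645 mice and 0.149 to 3.12 CPM in LPS-vehicle mice, at least 9.25-fold lower from a floor of 3 counts per library. Its fold change had a value in only 9 of the fits that left out a single mouse, and was not tested in the others. BC100530 had 3 counts in all over the LPS-CPD-4645 mice against 1.4 CPM ± 0.538 (SD, n = 5), a ratio of 43.4 with a 95% counting interval of 14.9 to 211. Stefin A genes are near-identical neighbours on chromosome 16, so the share of reads of each is uncertain. Cd177, a surface protein of neutrophils, was at 0.566 to 5.45 CPM and at 0 to 0.196 CPM (-4.20 ± 0.96, adjusted p = 0.00313), with -3.05 without LPS-vehicle mouse 2 and -4.87 without treated mouse 4.

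Of the neutrophil markers tested, Lcn2, Padi4 and Mmp9 did not fall. Lcn2 (lipocalin 2), an iron-sequestering protein that endothelial cells and astrocytes also make, was at 563, 902, 730, 452 and 853 CPM in LPS-vehicle and at 853, 916, 676 and 668 CPM in LPS-CPD-4645 mice, and the groups overlapped (0.15 ± 0.40, adjusted p = 0.803). With Lcn2 the neutrophil markers summed to 531 to 1210 and 689 to 937 CPM, and without it to 78.5 to 307 and 13.4 to 39.3 CPM, beside 12.8 to 17.6 CPM in sham-vehicle mice. Padi4, which citrullinates histones, rose (3.16 ± 0.87, adjusted p = 0.0108), but its values of 0.0791, 4.79, 0.903 and 5.89 CPM overlapped the 0.0343 to 1.76 CPM of LPS-vehicle mice, DESeq2 did not call it, and without LPS-vehicle mouse 3 it was at 3.87. DESeq2 did not call Retnlg either. Mmp9, a gelatinase, was at -0.73 ± 0.27 and not called.

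Of 11 monocyte and macrophage markers tested 6 fell (54.5%, against 4.19% of all genes, median -1.31): Chil3, a chitinase-like protein, Lyz2, lysozyme of myeloid cells, the surface receptor Adgre1 (F4/80), F13a1, the A chain of coagulation factor XIII, the hyaluronan receptor Lyve1, and Cd14, the co-receptor of LPS. Lyz2 was at 56.9, 44.2, 71.1, 28.9 and 14.5 CPM in LPS-vehicle mice and at 8.38, 8.92, 9.75 and 6.36 CPM in LPS-CPD-4645 mice. The groups did not overlap (-2.35 ± 0.33, adjusted p = 7.63e-05), and the treated mean of 8.35 CPM ± 1.44 (SD, n = 4) lay beside a sham-vehicle mean of 8.09 CPM ± 2 (SD, n = 4). Cd14 went from 90.8, 118, 95.3, 56.3 and 39.2 CPM to 41.7, 33, 36 and 33.9 CPM, with 1 treated mouse above the lowest LPS-vehicle mouse (-1.15 ± 0.26, adjusted p = 0.00298), and the call was lost without LPS-vehicle mouse 2 (-0.96). Limma-voom did not call Lyve1. The 13 monocyte and macrophage markers in the files summed to 107 to 227 and 57.7 to 81.1 CPM. Lymphocyte markers gave no call by edgeR, limma-voom or DESeq2 among 6 T and NK and 5 B cell genes tested. So few genes would seldom give a call at the shares of all genes, 4.19% lower and 1.7% higher. None had an unadjusted p under 0.05, against 22% lower and 19.4% higher of all genes. Fold changes were below 0 in all 6 T and NK genes (median -0.74) and in 3 of the 5 B cell genes (median -0.21).

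**Figure D2:**
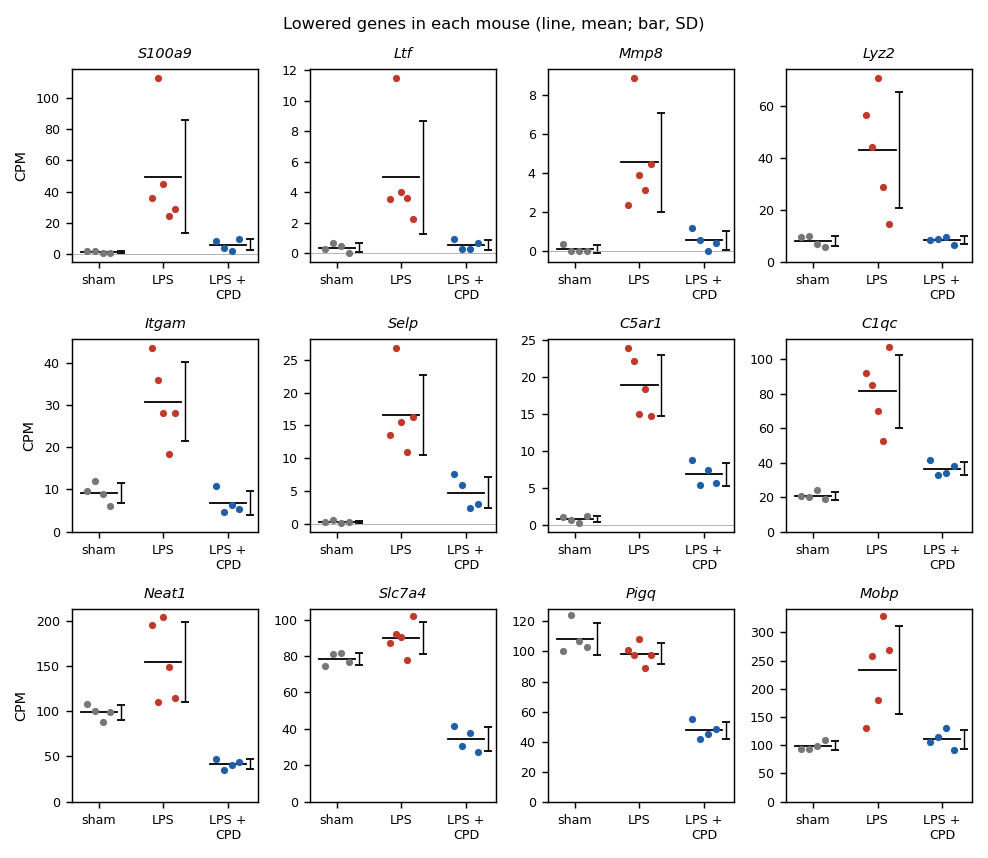
CPM of 12 lowered genes in each mouse (vertical axes, linear, 1 scale per gene) for the sham-vehicle, LPS-vehicle and LPS-CPD-4645 groups, with means as lines and SD as bars. In Neat1, Slc7a4 and Pigq the LPS-CPD-4645 mice lie below the sham-vehicle mice as well, whereas C5ar1 and Selp stay above them.

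In the list of phagocyte oxidase and granule genes 7 of 21 fell (33.3%, against 4.19% of all genes, median -0.91), and 20 of 21 fold changes were below 0 (95.2%, against 52.2% of all genes); the count was 7 by limma-voom and by DESeq2, and 5 to 10 as single mice were left out. Alox5ap, the membrane protein that presents arachidonic acid to 5-lipoxygenase, was at 8.83, 15, 10.5, 12.5 and 18.3 CPM in LPS-vehicle and at 4.51, 2.97, 3.73 and 2.79 CPM in LPS-CPD-4645 mice. Every treated mouse was lower than every LPS-vehicle mouse, at a level within the sham-vehicle range of 3.06 to 6.96 CPM for 2 mice and just under it for the other two (-1.92 ± 0.26, adjusted p = 4.92e-05). Cybb, the catalytic subunit of the phagocyte NADPH oxidase, fell (-1.41 ± 0.42, adjusted p = 0.0158) with overlapping groups, and was not called without LPS-vehicle mouse 3 (-0.97), where it was highest, without the 2 shallowest libraries, or by limma-voom.

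Among Fc and lectin receptors 6 of 22 fell (27.3%, against 4.19% of all genes) and 1, the inhibitory receptor Cd300a, rose (4.54%, against 1.7%); without LPS-CPD-4645 mouse 3 the count of falls was 2. The rise of Cd300a (1.43 ± 0.50) was not called without LPS-vehicle mouse 1, 4 or 5 (1.44, 1.45, 1.29) or treated mouse 2, 3 or 4 (1.52, 1.01, 1.53), nor with only the 9 LPS mice. Trem1, which amplifies neutrophil and monocyte responses, was at 2.85, 3.95, 5.42, 4.33 and 2.12 CPM in LPS-vehicle and at 0.791, 1.43, 0.489 and 1.06 CPM in LPS-CPD-4645 mice (-1.94 ± 0.42, adjusted p = 0.00218). Its signalling adaptor Tyrobp (DAP12) went from 25.5 CPM ± 6.47 (SD, n = 5) to 11 CPM ± 2.94 (SD, n = 4), near the sham-vehicle 10.5 CPM ± 3.71 (SD, n = 4) (-1.23 ± 0.25, adjusted p = 0.00117). Neither gene had overlapping groups.

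Of 20 complement genes 5 fell (25%, against 4.19% of all genes). C1qc, a chain of the C1q complex that starts the classical pathway, was at 92.1, 85.2, 69.8, 52.4 and 107 CPM and at 41.3, 32.7, 34.1 and 38.2 CPM, without overlap (-1.16 ± 0.16, adjusted p = 4.65e-05). Its partner C1qa (-1.04 ± 0.21, adjusted p = 0.00112) fell by little more than 2-fold and was not called without LPS-vehicle mouse 2 or 5 (-1, -0.84) or treated mouse 3 or 4 (-0.94, -0.97). C3, the component on which the pathways converge, averaged 11.6 CPM ± 3.93 (SD, n = 5) and 3.71 CPM ± 1.56 (SD, n = 4), and the lowest LPS-vehicle mouse was just below the highest treated one (-1.66 ± 0.35, adjusted p = 0.00198).

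Chemoattractant receptors fell in 5 of 19 cases (26.3%, against 4.19% of all genes). C5ar1, the receptor of the complement fragment C5a, was at 23.9, 22.2, 15, 18.4 and 14.8 CPM in LPS-vehicle mice and at 8.86, 5.42, 7.45 and 5.69 CPM in LPS-CPD-4645 mice. No values overlapped, and sham-vehicle mice were at 0.853 CPM ± 0.425 (SD, n = 4), so the treated level lay between (-1.48 ± 0.24, adjusted p = 2.71e-04). Fpr1, the receptor of formylated peptides, fell (-1.55 ± 0.50) but was not called without LPS-vehicle mouse 1 or 2 (-1.27, -1.42) or treated mouse 3 or 4 (-1.47, -1.36), nor by limma-voom.

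Of 25 chemokines tested 5 fell (20%, against 4.19% of all genes) and 3 rose (12%, against 1.7%), and the median was -0.02. The lowered ones were Ccl6, Ccl7 and Ccl9, which draw monocytes, Cxcl5, which draws neutrophils, and Cxcl13, which draws B cells. Ccl9 was at 7.69, 7.55, 9.58, 5.56 and 4.74 CPM in LPS-vehicle and at 2.06, 2.03, 1.2 and 2.24 CPM in LPS-CPD-4645 mice, without overlap (-1.89 ± 0.43, adjusted p = 0.00331). Cxcl5 (-1.33 ± 0.41) was not called without LPS-vehicle mouse 1 (-1.15) or treated mouse 3 or 4 (-1.21, -1.22), and Cxcl13 (-1.76 ± 0.51) was not called without LPS-vehicle mouse 1 (-1.45) or treated mouse 2 (-1.61). Limma-voom called neither Cxcl5 nor Ccl7, and over the list it called 3 chemokines lower and 5 higher. Ccl2 (-0.62 ± 0.59), Ccl5 (-0.59 ± 0.46), Cxcl1 (0.00 ± 0.56) and Cxcl2 (-0.13 ± 0.62), all strongly variable between mice, were not called.

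The raised chemokines were Ccl17, Cxcl9 and Cxcl10. Ccl17, a ligand of CCR4 on T cells, was at 6.97, 11.3, 7.44, 9.36 and 7.03 CPM in LPS-vehicle and at 30.4, 47.5, 56.6 and 44.9 CPM in LPS-CPD-4645 mice, above every LPS-vehicle and every sham-vehicle mouse (2.40 ± 0.22, adjusted p = 2.03e-06). Cxcl10, which interferons induce and which binds CXCR3, was at 21.4, 22.1, 117, 15.8 and 4.92 CPM and at 152, 433, 138 and 106 CPM (2.64 ± 0.67, adjusted p = 0.0066). LPS-vehicle mouse 3 was above the lowest treated mouse, and the fold change was 3.69 without that mouse and 1.97 without treated mouse 2. Cxcl10 overlaps Art3, which was not called (-0.02 ± 0.26). Cxcl9, another ligand of CXCR3, rose from 0.957 CPM ± 0.353 (SD, n = 5) to 3.44 CPM ± 1.44 (SD, n = 4), with the closest mice at 1.4 and 1.41 CPM (1.87 ± 0.42, adjusted p = 0.00305).

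Of 34 members of the interferon response list 2 rose (5.88%, against 1.7% of all genes), Rsad2 (viperin) and Mx1 (an antiviral GTPase), and 1, Oasl2, fell (2.94%, against 4.19%). The median was -0.08. Rsad2 was at 5.22, 9.83, 4.92, 3.45 and 3.31 CPM in LPS-vehicle and at 16, 31.5, 15.6 and 14.1 CPM in LPS-CPD-4645 mice, all of the latter above all of the former (1.84 ± 0.37, adjusted p = 0.00115). Isg15 (-0.55 ± 0.32), Ifit1 (-0.16 ± 0.28) and Irf7 (-0.30 ± 0.35) were not called. Oasl2 (-1.31 ± 0.34) was not called without LPS-vehicle mouse 2 (-0.79), and Mx1 (1.27 ± 0.40) was not called without LPS-vehicle mouse 1 or 5 (1.13, 1.16) or treated mouse 1 or 2 (1.22, 0.91). Without LPS-vehicle mouse 2 the median of the list was 0.24.

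Of 37 cytokines and receptors 5 fell (13.5%, against 4.19% of all genes): Csf3r, the decoy receptor Il1r2, Tnfsf8 (the ligand of CD30), Il1b (interleukin 1 beta) and Il23a (a chain of interleukin 23). The count was 2 without LPS-CPD-4645 mouse 2 and 3 by DESeq2, which did not call Tnfsf8 or Il1b. Il1b (-1.41 ± 0.51) was not called by limma-voom, with only the 9 LPS mice, or without LPS-vehicle mouse 2 or 3 (-1.18, -1.05) or treated mouse 2 or 3 (-1.16, -1.23). Il1r2 (-1.31 ± 0.39) was not called without LPS-vehicle mouse 4 (-1.04) or treated mouse 2 (-1.16), nor Il23a (-2.31 ± 0.72) without LPS-CPD-4645 mouse 1 or 2 (-2.14, -1.94). Csf3r was at 8.34, 8.7, 4.03, 6.02 and 5.66 CPM and at 2.61, 1.75, 0.64 and 0.863 CPM (-2.25 ± 0.38, adjusted p = 3.48e-04), and its treated mean of 1.47 CPM ± 0.9 (SD, n = 4) was below the sham-vehicle 4.82 CPM ± 1.94 (SD, n = 4). Among 30 Toll-like receptor and NF-kB genes, with a median of 0.04, 3 fell (10%, against 4.19%), Cd14, the kinase Irak4 and the inhibitory receptor Sigirr; the count was 1 without LPS-vehicle mouse 2, and Sigirr (-1.17 ± 0.40) was not called without LPS-vehicle mouse 2, 4 or 5 (-1.17, -1.02, -0.98) or treated mouse 2 or 4 (-1.10, -0.88). In the inflammasome list, Pycard was at 6.94, 4.79, 8.07, 3.72 and 7.18 CPM in LPS-vehicle and at 2.13, 2.66, 2.15 and 1.61 CPM in LPS-CPD-4645 mice (-1.50 ± 0.27, adjusted p = 4.76e-04), and Nlrc3, a negative regulator of innate signalling, was the other of 15 genes that fell (13.3%, against 4.19%).

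Leukocytes attach to vessel walls through selectins on the endothelium and integrins on the leukocyte, and genes of both sides fell. Of 26 adhesion and transmigration genes 10 fell (38.5%, against 4.19% of all genes, median -0.66) and 1 rose (3.85%, against 1.7%), and 7 to 10 fell as single mice were left out. On the vessel side, Selp (P-selectin) was at 13.5, 26.8, 15.5, 10.9 and 16.3 CPM in LPS-vehicle and at 7.51, 5.98, 2.45 and 3.06 CPM in LPS-CPD-4645 mice. The groups were apart, and both were above the sham-vehicle mean of 0.294 CPM ± 0.184 (SD, n = 4) (-1.84 ± 0.33, adjusted p = 5.08e-04). Sele (E-selectin) was at 5.15, 20.8, 9.45, 7.83 and 6.17 CPM and at 7.27, 2.45, 1.17 and 1.3 CPM, which overlap (-1.78 ± 0.59, adjusted p = 0.0284), and was not called without LPS-vehicle mouse 2 (-1.28) or treated mouse 2, 3 or 4 (-1.71, -1.49, -1.51), nor by DESeq2. Without treated mouse 1 it was at -2.58. Vcam1 (-0.61 ± 0.18, adjusted p = 0.0152) passed the p threshold but not 2-fold.

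Among genes of the leukocyte side of this attachment, the integrins Itgam (CD11b), Itgb2 (CD18) and Itgal (CD11a) and the selectin ligand Selplg fell. The cells that these transcripts came from were not tested, and Itgam and Selplg were present in sham-vehicle mice too. Itgam was at 43.6, 35.9, 28.2, 18.4 and 28.1 CPM in LPS-vehicle and at 10.8, 4.69, 6.25 and 5.45 CPM in LPS-CPD-4645 mice, without overlap (-2.22 ± 0.27, adjusted p = 1.78e-05). Its treated mean of 6.79 CPM ± 2.72 (SD, n = 4) lay near the sham-vehicle 9.14 CPM ± 2.38 (SD, n = 4), and it overlaps an annotated gene on the same strand, Gm49368. Selplg was at 26.4 CPM ± 2.9 (SD, n = 4) in sham-vehicle, 14.8 CPM ± 8.13 (SD, n = 5) in LPS-vehicle and 4.67 CPM ± 2.45 (SD, n = 4) in LPS-CPD-4645 mice (-1.73 ± 0.33, adjusted p = 7.72e-04).

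Over 23 integrin subunits 7 fell (30.4%, against 4.19% of all genes): Itgal, Itgam, Itgb2, Itga4, Itga10, Itga11 and Itgb3. Itga10 and Itga11, collagen receptor subunits, averaged 3.29 CPM ± 1.14 (SD, n = 5) and 1.16 CPM ± 0.288 (SD, n = 4), and 2.77 CPM ± 0.805 (SD, n = 5) and 0.771 CPM ± 0.525 (SD, n = 4), each without overlap. Itga4 (-1.03 ± 0.22) was not called without LPS-vehicle mouse 3 or 4 (-0.96, -0.97) or treated mouse 3 (-0.84), nor Itgb3 (-1.09 ± 0.26) without LPS-vehicle mouse 2 (-0.91) or treated mouse 4 (-0.95). Itga5, the fibronectin receptor subunit, was at -0.75 ± 0.18, adjusted p = 0.00396, under 2-fold. Fut7, a fucosyltransferase that builds selectin ligands, was the adhesion gene that rose, from 1.01 CPM ± 0.477 (SD, n = 5) to 4.02 CPM ± 1.13 (SD, n = 4) (2.06 ± 0.40, adjusted p = 9.27e-04).

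**Figure D3:**
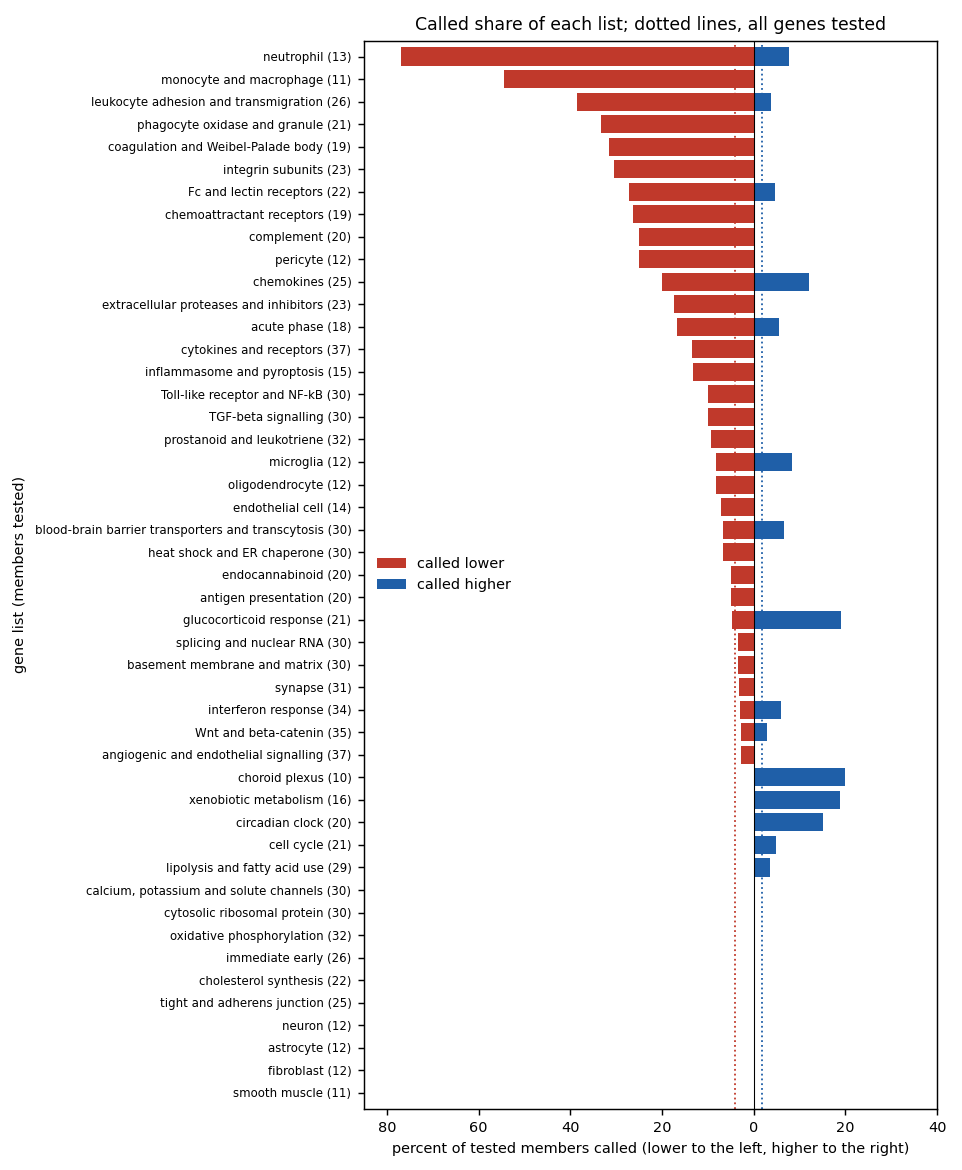
Share of the tested members of each gene list (vertical axis; lists with at least 10 tested members) that fell (red, to the left) and rose (blue, to the right), in percent of members tested. Dotted lines give the shares over all genes, 4.19% lower and 1.7% higher; the neutrophil list reaches 76.9% on the lowered side and the glucocorticoid list 19% on the raised side.

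In the list of coagulation and Weibel-Palade body genes 6 of 19 fell (31.6%, against 4.19% of all genes, median -0.27), among them Vwf (von Willebrand factor), F8, F10, F13a1 and the protein C receptor Procr. Procr was at 6.76, 6.37, 5.42, 4.85 and 5.75 CPM in LPS-vehicle and at 1.98, 1.89, 2.63 and 0.903 CPM in LPS-CPD-4645 mice, beside 1.34 CPM ± 0.564 (SD, n = 4) in sham-vehicle mice (-1.66 ± 0.31, adjusted p = 8.09e-04). Vwf was at 20.8, 31.9, 8.07, 34.7 and 33.7 CPM and at 13.8, 17.5, 8.39 and 10.3 CPM, which overlap (-1.07 ± 0.31, adjusted p = 0.0152), and was not called without LPS-vehicle mouse 2, 4 or 5 (-0.99, -0.95, -0.97) or treated mouse 3 or 4 (-0.91, -0.98). The count of the list was 3 without LPS-CPD-4645 mouse 3 and 4 by limma-voom, which did not call F8 or F10. F8 (-1.85 ± 0.57) was not called without LPS-CPD-4645 mouse 1, 2 or 3 (-1.72, -1.89, -1.58), nor F10 (-2.95 ± 0.93) without LPS-CPD-4645 mouse 2 or 3 (-2.76, -2.48). F10 had a value in only 9 of the fits that left out a single mouse, and was not tested in the others. Thbd (-0.10 ± 0.22), Tfpi (-0.05 ± 0.22) and Plat (0.20 ± 0.10) were not called.

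Adamts9, a metalloprotease that cleaves proteoglycans, was at 58.3, 70.9, 41.7, 55.7 and 48.1 CPM in LPS-vehicle and at 28.9, 21.2, 22.2 and 22.5 CPM in LPS-CPD-4645 mice (-1.23 ± 0.16, adjusted p = 3.54e-05). The groups did not overlap, and sham-vehicle mice were lower still at 5.07 CPM ± 1.25 (SD, n = 4). With Mmp8, Adam19 and the aggrecanase Adamts4 it made up the 4 of 23 proteases and inhibitors that fell (17.4%, against 4.19% of all genes), and Adam19 (-1.03 ± 0.15) was not called without LPS-vehicle mouse 1 (-0.94) or treated mouse 4 (-0.96). Hspg2 (perlecan) was the 1 of 30 basement membrane and matrix genes that fell (3.33%, under the 4.19% of all genes), from 28.2 CPM ± 6.82 (SD, n = 5) to 11.1 CPM ± 2.55 (SD, n = 4) (-1.34 ± 0.20, adjusted p = 1.27e-04).

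Of 30 genes of transforming growth factor beta signalling 3 fell (10%, against 4.19% of all genes), while the median was 0.10 and 63.3% of fold changes were above 0, against 47.8% of all genes. The 3 were the ligand Tgfb1, its surface carrier Lrrc32 (GARP) and its activator Thbs1. Tgfb1 was at 14.7, 21.4, 13.1, 11.8 and 12.5 CPM in LPS-vehicle and at 6.01, 6.44, 6.29 and 5.42 CPM in LPS-CPD-4645 mice (-1.29 ± 0.20, adjusted p = 1.75e-04). These did not overlap, and the treated mean of 6.04 CPM ± 0.45 (SD, n = 4) was at the sham-vehicle level of 5.99 CPM ± 1.44 (SD, n = 4). Lrrc32 (-1.11 ± 0.25) was not called without LPS-vehicle mouse 2 (-0.82), and Thbs1 (-1.14 ± 0.38) was not called without LPS-vehicle mouse 2 (-0.74) or treated mouse 1, 3 or 4 (-1.13, -0.99, -1.08), without the 2 shallowest libraries, or by limma-voom.

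Of 14 endothelial markers 12 had fold changes below 0 (85.7%, against 52.2% of all genes) and 7 were lower at an unadjusted p under 0.05 (50%, against 22%). Tie1, a receptor tyrosine kinase and the 1 that fell (7.14%, against 4.19%), was at -1.02 ± 0.23, adjusted p = 0.00295, a call lost without LPS-vehicle mouse 2 or 5 (-0.91, -1) or treated mouse 4 (-0.86). Pecam1 (-0.82 ± 0.19), Cldn5 (-0.57 ± 0.18) and Cdh5 (-0.02 ± 0.16) were not called. Of 12 pericyte markers 3 fell (25%, against 4.19%): Anpep (aminopeptidase N), the ATPase Atp13a5 and the proteoglycan Cspg4 (NG2). Cspg4 was at 21.5, 25.3, 17.4, 27.9 and 30.6 CPM in LPS-vehicle and at 11.1, 8.74, 9.9 and 7.85 CPM in LPS-CPD-4645 mice, all of them below the sham-vehicle range of 17.7 to 24.6 CPM (-1.40 ± 0.16, adjusted p = 1.27e-05). The pericyte markers together summed to 254 to 397 and 266 to 341 CPM. In the astrocyte, neuron, smooth muscle and fibroblast lists edgeR called 0 genes, at medians of -0.01, 0.11, 0.22 and -0.28. At an unadjusted p under 0.05 these lists held 0, 3, 3 and 2 higher and 1, 0, 0 and 1 lower genes of 12, 12, 11 and 12 tested, beside 19.4% higher and 22% lower of all genes, and limma-voom and DESeq2 each called 1 smooth muscle gene higher and no other.

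**Figure D4:**
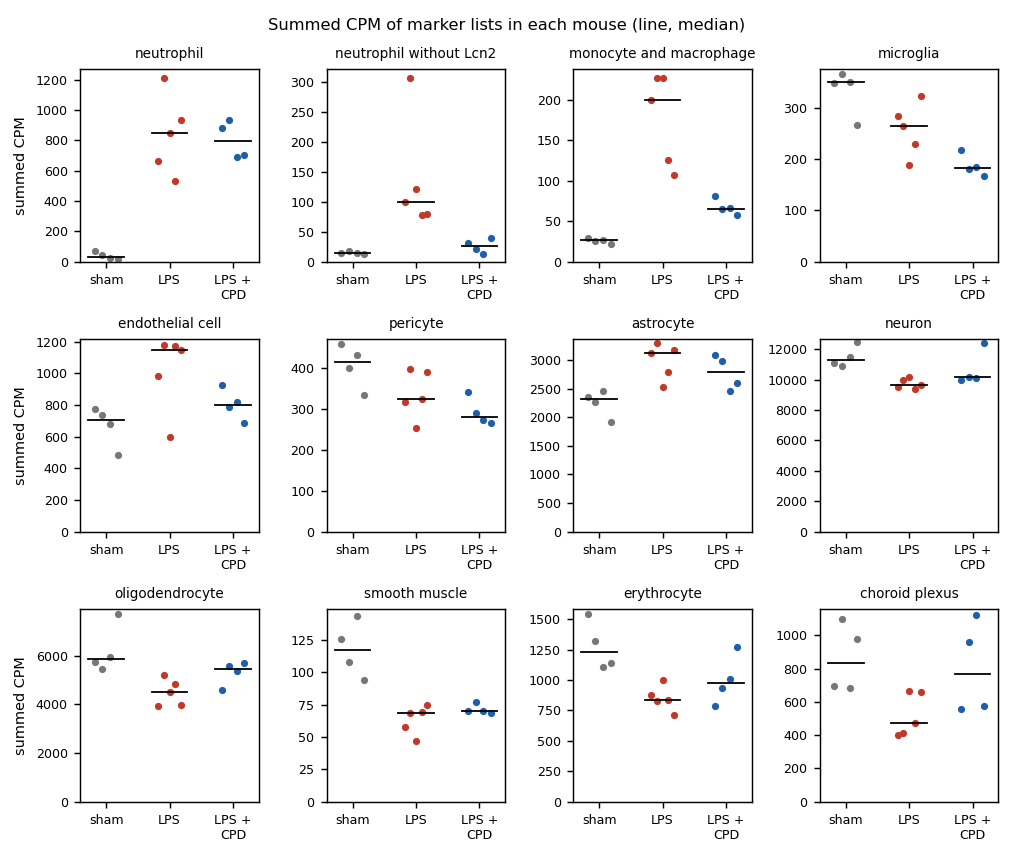
Summed CPM of cell type marker lists (vertical axes, linear) in each mouse of the sham-vehicle, LPS-vehicle and LPS-CPD-4645 groups, with medians as lines. Monocyte and macrophage sums separate the LPS groups (107 to 227 against 57.7 to 81.1 CPM), while endothelial sums overlap only through LPS-vehicle mouse 3 (596 CPM, with the other 4 at 983 to 1180 CPM against 688 to 925 CPM in treated mice).

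Of 12 microglia markers tested Aif1 (IBA1) fell (8.33%, against 4.19% of all genes) and Siglech rose (8.33%, against 1.7%). Fold changes were below 0 in 10 and above 0 in 2, with 5 lower and 1 higher at an unadjusted p under 0.05 (22% and 19.4% of all genes), the median was -0.54, and the summed level was 189 to 322 and 168 to 217 CPM. Siglech was at 0.446, 0.556, 1.01, 0.931 and 0.507 CPM in LPS-vehicle and at 1.98, 2.17, 1.88 and 2.39 CPM in LPS-CPD-4645 mice, with sham-vehicle mice at 5.96 CPM ± 1.27 (SD, n = 4). The treated mice were thus above every LPS-vehicle mouse and below every sham-vehicle mouse (1.68 ± 0.28, adjusted p = 2.88e-04). Aif1 went from 9.99 CPM ± 2.21 (SD, n = 5) to 3.81 CPM ± 0.815 (SD, n = 4), under the sham-vehicle 6.77 CPM ± 0.896 (SD, n = 4) (-1.38 ± 0.20, adjusted p = 1.05e-04). The purinergic receptor P2ry12 (-0.06 ± 0.23), the fractalkine receptor Cx3cr1 (0.14 ± 0.23) and the growth factor receptor Csf1r (-0.56 ± 0.17) were not called.

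Several abundant genes outside the leukocyte lists fell too. The 8 largest falls in CPM were of Mobp, Neat1, Itih3, Mir124a-1hg, C1qa, Slc7a4, Pigq and Ttc14. Neat1, the long noncoding RNA that scaffolds nuclear paraspeckles, was at 195, 110, 204, 149 and 114 CPM in LPS-vehicle and at 47.3, 35.1, 40 and 44.2 CPM in LPS-CPD-4645 mice. Every treated mouse was below every LPS-vehicle mouse and every sham-vehicle mouse, the latter at 98.7 CPM ± 8.27 (SD, n = 4) (-1.89 ± 0.17, adjusted p = 1.61e-06). It was the 1 of 30 splicing and nuclear RNA genes that fell (3.33%, against 4.19% of all genes).

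Slc7a4, of the cationic amino acid transporter family, was at 87.3, 92.1, 90.5, 78 and 102 CPM and at 41.7, 30.7, 37.7 and 27.5 CPM (-1.39 ± 0.11, adjusted p = 6.55e-07). Pigq, a subunit of the enzyme that starts the synthesis of glycosylphosphatidylinositol anchors, was at 101, 97.9, 108, 88.7 and 97.5 CPM and at 54.8, 42, 44.9 and 48.2 CPM (-1.06 ± 0.09, adjusted p = 1.52e-06). In both, LPS-vehicle mice were close to the sham-vehicle levels of 78.5 CPM ± 3.43 (SD, n = 4) and 108 CPM ± 10.6 (SD, n = 4), and only LPS-CPD-4645 mice were apart. Mir124a-1hg, the host transcript of a miR-124 gene, went from 107 CPM ± 27.7 (SD, n = 5) to 43 CPM ± 10.4 (SD, n = 4), and Ttc14, a tetratricopeptide repeat gene, from 82 CPM ± 20.7 (SD, n = 5) to 31.6 CPM ± 7.57 (SD, n = 4), with sham-vehicle means of 101 CPM ± 5.27 (SD, n = 4) and 78.8 CPM ± 11.6 (SD, n = 4). Slc7a4 overlaps P2rx6, Pigq overlaps Nhlrc4, and Ttc14 overlaps Ccdc39, which fell as well (-1.12 ± 0.16, not called without LPS-vehicle mouse 4 (-0.99)), so reads may be shared within these pairs.

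Mobp, a myelin protein of oligodendrocytes, and Itih3, a hyaluronan-binding chain of the inter-alpha-trypsin inhibitors, were higher in LPS-vehicle than in sham-vehicle mice (log2 fold changes of 1.24 and 1.16) and near the sham-vehicle level with CPD-4645 (0.16 and -0.25). Mobp was at 130, 258, 180, 329 and 269 CPM in LPS-vehicle and at 105, 114, 131 and 90.9 CPM in LPS-CPD-4645 mice, where the highest treated mouse was level with the lowest LPS-vehicle mouse (-1.09 ± 0.19, adjusted p = 4.41e-04), and was not called without LPS-vehicle mouse 4 (-0.93) or treated mouse 4 (-0.99). Itih3 was at 125, 165, 77.4, 130 and 149 CPM and at 70.1, 45.4, 51.6 and 28.7 CPM (-1.42 ± 0.22, adjusted p = 1.37e-04). Mobp was the 1 of 12 oligodendrocyte markers that fell (8.33%, against 4.19% of all genes), in a list with a median of 0.08. Grm7, a presynaptic glutamate receptor, was the 1 of 31 synapse genes that fell (3.23%, against 4.19%), from 58.1 CPM ± 5.39 (SD, n = 5) to 28.3 CPM ± 5.5 (SD, n = 4), and was not called without LPS-CPD-4645 mouse 3 (-0.90).

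Of 30 transporter and transcytosis genes of the blood-brain barrier 2 fell (6.67%, against 4.19% of all genes), Slc38a5 and the organic anion transporter Slco2b1, and 2 rose (6.67%, against 1.7%), Plvap and Ager. Slc38a5, a glutamine transporter, was at 3.54, 2.71, 1.13, 2.41 and 2.59 CPM in LPS-vehicle and at 0.553, 0.595, 0 and 0.432 CPM in LPS-CPD-4645 mice, and at 8.94 CPM ± 2.03 (SD, n = 4) in sham-vehicle mice (-2.74 ± 0.47, adjusted p = 3.88e-04). The treated mice were the lowest and the sham-vehicle mice the highest of the 3 groups. Plvap, a protein of endothelial fenestrae and caveolae that mature barrier endothelium keeps low, was at 15, 16.2, 16.5, 15.7 and 16 CPM and at 26.2, 41.5, 34.4 and 36.3 CPM (1.13 ± 0.21, adjusted p = 8.40e-04). It overlaps Gtpbp3 on the opposite strand (-0.27 ± 0.12). Ager, the receptor of advanced glycation end products, rose from 2.95 CPM ± 1.34 (SD, n = 5) to 6.87 CPM ± 0.969 (SD, n = 4) (1.28 ± 0.31, adjusted p = 0.00431). No gene of 25 tight and adherens junction genes was called by edgeR, limma-voom or DESeq2. At an unadjusted p under 0.05, 1 was higher (4%, against 19.4% of all genes) and 9 were lower (36%, against 22%). Fold changes of the list ran from -2.01 to 1.11, with a median of -0.05. Ocln (-0.02 ± 0.25), Tjp1 (-0.09 ± 0.10) and Ctnnb1 (0.11 ± 0.07) lay close to 0.

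Raised genes included targets of the glucocorticoid receptor and parts of the circadian clock. In the glucocorticoid list 4 of 21 rose (19.1%, against 1.7% of all genes) and 1 fell (4.76%, near the 4.19% of all genes), at a median of 0.49. At an unadjusted p under 0.05, 57.1% of this list were higher (19.4% of all genes) and 19% lower (22%). In the clock list 3 of 20 rose (15%, against 1.7%), at a median of 0.09. Per1, a clock repressor that glucocorticoids also induce, belongs to both lists and was at 91.7, 101, 93.9, 78 and 84.2 CPM in LPS-vehicle and at 199, 241, 243 and 229 CPM in LPS-CPD-4645 mice. The spread within groups was small beside the distance between them, and sham-vehicle mice were at 54.2 CPM ± 5.32 (SD, n = 4) (1.35 ± 0.09, adjusted p = 1.38e-07). This was among the smallest adjusted p-values of the comparison.

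The clock repressors Cry1 and Ciart rose with Per1. Cry1 was at 20.2, 23.8, 26.1, 22.2 and 22.8 CPM in LPS-vehicle and at 50.2, 52.1, 42.9 and 63.5 CPM in LPS-CPD-4645 mice (1.19 ± 0.12, adjusted p = 4.90e-06), and Ciart, which overlaps C920021L13Rik, went from 16.3 CPM ± 2.61 (SD, n = 5) to 39.6 CPM ± 5.01 (SD, n = 4) (1.27 ± 0.14, adjusted p = 6.92e-06). The fold changes of LPS-vehicle over sham-vehicle mice were 0.01 and 0.18. The other clock genes were not called, among them Per2 (0.01 ± 0.11), Per3 (-0.43 ± 0.10), Arntl (0.60 ± 0.10), Nr1d1 (0.46 ± 0.09) and Dbp (-0.29 ± 0.11). The count of raised clock genes was 3 whichever mouse was left out.

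Of the glucocorticoid targets, Map3k6 was at 33.5, 47.6, 27.2, 32.9 and 33.9 CPM in LPS-vehicle and at 83.6, 83.6, 80 and 55 CPM in LPS-CPD-4645 mice (1.10 ± 0.23, adjusted p = 0.0015), and was not called without the 2 shallowest libraries. Cdkn1a (p21), a brake on the cell cycle, was at 107, 209, 141, 143 and 129 CPM and at 280, 312, 314 and 302 CPM (1.05 ± 0.17, adjusted p = 2.03e-04). Klf9, a transcription factor, went from 31.4 CPM ± 12.6 (SD, n = 5) to 66.8 CPM ± 11.5 (SD, n = 4) (1.07 ± 0.21, adjusted p = 9.63e-04). The groups were apart in all 3, and LPS-vehicle mice were already above sham-vehicle mice in Map3k6 and Cdkn1a (3.17 and 2.41) but not in Klf9 (-0.01). Cdkn1a was not called without LPS-vehicle mouse 1 (0.96), nor Klf9 without LPS-vehicle mouse 1 or 3 (0.97, 0.93) or treated mouse 2 (0.97). Sult1a1, a sulfotransferase and the member that fell (-1.05 ± 0.21), was not called without LPS-vehicle mouse 4 or 5 (-0.98, -0.94) or treated mouse 4 (-0.97). Of widely used reporters of the receptor, Fkbp5 (0.31 ± 0.10), Tsc22d3 (0.14 ± 0.16), Sgk1 (0.49 ± 0.12) and Dusp1 (0.16 ± 0.13) were not called.

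**Figure D5:**
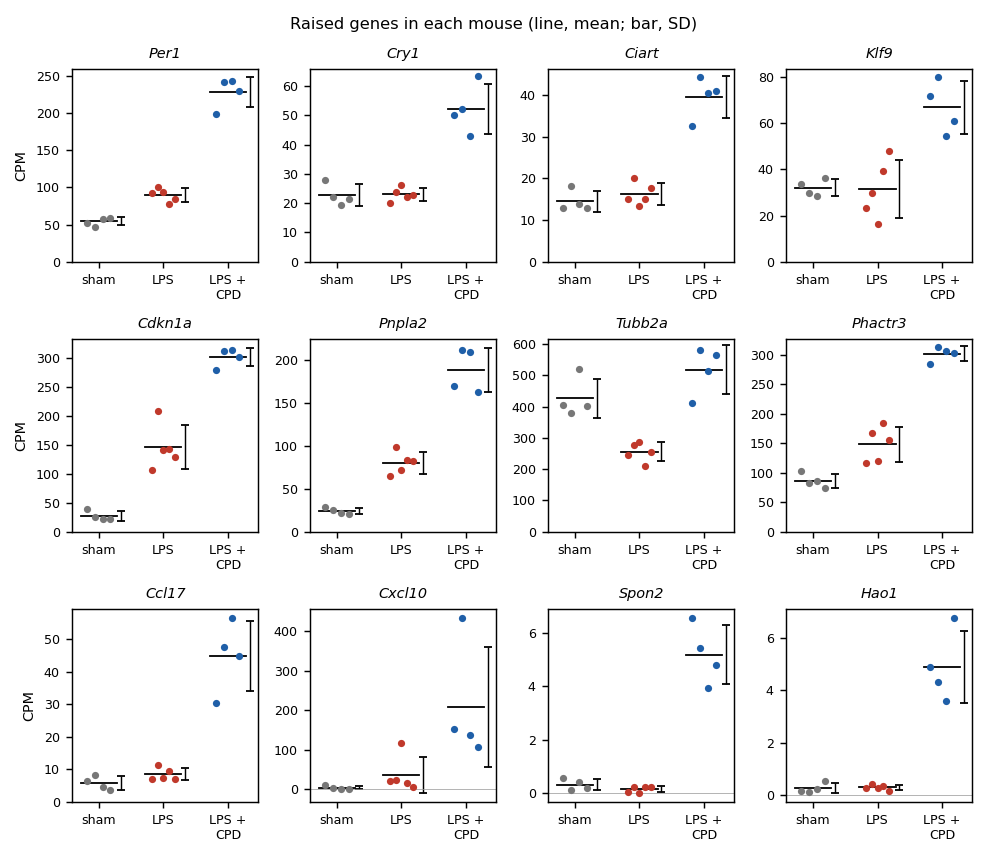
CPM of 12 raised genes in each mouse (vertical axes, linear, 1 scale per gene) for the sham-vehicle, LPS-vehicle and LPS-CPD-4645 groups, with means as lines and SD as bars. LPS-CPD-4645 mice stand above all LPS-vehicle mice in every panel except Cxcl10, where LPS-vehicle mouse 3 at 117 CPM lies above the lowest treated mouse at 106 CPM.

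The 8 largest rises in CPM were of Gm42418, Tubb2a, Ttr, Cxcl10, Cdkn1a, Phactr3, Per1 and Pnpla2. Pnpla2 (adipose triglyceride lipase), which removes the first fatty acid from triglycerides in the pathway that MAGL ends, was at 64.7, 98.4, 71.3, 83.3 and 81.9 CPM in LPS-vehicle and at 170, 212, 209 and 162 CPM in LPS-CPD-4645 mice, without overlap (1.23 ± 0.12, adjusted p = 3.89e-06). It was the 1 of 29 lipolysis and fatty acid genes that rose (3.45%, against 1.7%); edgeR and DESeq2 called 0 lower and limma-voom 1, with 13 lower at an unadjusted p under 0.05 (44.8%, against 22% of all genes). Tubb2a, a beta-tubulin of neurons, was at 246, 278, 287, 209 and 256 CPM and at 410, 582, 515 and 566 CPM (1.02 ± 0.12, adjusted p = 1.14e-05), and at 427 CPM ± 62.4 (SD, n = 4) in sham-vehicle mice. It was not called without LPS-vehicle mouse 4 (0.96) or treated mouse 2 or 4 (0.96, 0.99), and its near-identical paralog Tubb2b may share reads.

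Phactr3, a regulator of protein phosphatase 1, was at 116, 167, 120, 184 and 156 CPM and at 284, 313, 307 and 303 CPM (1.02 ± 0.12, adjusted p = 1.75e-05), and fell just short of 2-fold without LPS-vehicle mouse 1 or 3 (0.94, 0.95) or treated mouse 2 (1). Ttr (transthyretin), the thyroid hormone carrier made by the choroid plexus, was at 147, 148, 335, 156 and 345 CPM and at 222, 550, 752 and 278 CPM. These overlap (1 ± 0.34, adjusted p = 0.035), the call was lost without LPS-vehicle mouse 1, 2 or 4 (0.88, 0.88, 0.89) or treated mouse 2 or 3 (0.89, 0.64), and limma-voom and DESeq2 did not make it. The 10 choroid plexus markers, of which Ttr and the potassium channel subunit Kcne2 rose (20%, against 1.7% of all genes), summed to 403 to 664 and 556 to 1120 CPM, and Kcne2 (1.54 ± 0.51) was not called without LPS-vehicle mouse 1 or 4 (1.42, 1.54) or treated mouse 2 or 3 (1.32, 1.43). Gm42418, a noncoding gene that overlaps ribosomal RNA sequence and cannot be told apart from it here, was at 572 to 1497 CPM and 1239 to 2649 CPM (1.11 ± 0.27, adjusted p = 0.00505), with overlapping groups, and was not called without LPS-vehicle mouse 1 or 4 (0.98, 0.99) or treated mouse 2 (0.92).

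By fold change, the largest rises were of genes near the limit of detection without CPD-4645. The 12 leading coding genes were Igfals, Tulp1, Tex35, Spon2, Crtam, Cyp3a57, Pde6b, Hao1, Gm2564, Mylk2, Tex45 and Ankrd7, with fold changes from 3.38 to 5.64 on the log2 scale. Among them are genes best known from liver (Igfals, Cyp3a57, Hao1) and retina (Tulp1, Pde6b). Hao1, a peroxisomal glycolate oxidase, was at 0.275, 0.43, 0.252, 0.356 and 0.149 CPM in LPS-vehicle and at 4.9, 4.3, 3.58 and 6.75 CPM in LPS-CPD-4645 mice (3.98 ± 0.40, adjusted p = 4.16e-06). Spon2, a secreted matrix protein, was at 0.0343, 0.215, 0, 0.219 and 0.209 CPM and at 6.56, 5.42, 3.95 and 4.79 CPM (4.95 ± 0.47, adjusted p = 2.78e-06). Igfals, the acid-labile subunit of circulating insulin-like growth factor complexes, was at 0, 0.0717, 0, 0 and 0 CPM and at 0.949, 1.29, 0.866 and 2.2 CPM (5.64 ± 0.88, adjusted p = 1.74e-04). Without LPS-vehicle mouse 2 that group had 0 counts of Igfals or Tulp1, and the fitted values of 8.09 and 8.49, against 5.64 and 5.21, then depend on the prior count. For Hao1, Spon2 and Igfals, every treated mouse was above every LPS-vehicle and every sham-vehicle mouse.

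Cyp3a57, of a cytochrome P450 subfamily that metabolizes drugs, went from 0.206 CPM ± 0.115 (SD, n = 5) to 4.87 CPM ± 2.72 (SD, n = 4) (4.76 ± 0.68, adjusted p = 8.13e-05). In the list of xenobiotic metabolism 16 of 32 members were tested and 3 rose, Cyp3a57, Hao1 and Cyp3a13 (18.8%, against 1.7% of all genes). Cyp3a57 and Hao1 are also among the largest rises by fold change and near the limit of detection in LPS-vehicle mice. The share therefore restates these genes and says nothing further about the list. Cyp3a13 (1.03 ± 0.26) was not called without LPS-vehicle mouse 3 or 5 (0.92, 0.94) or treated mouse 1 (0.84), nor by limma-voom. Cyp3a genes are close copies, so reads may be shared among them. Of 18 acute phase genes tested 3 fell (16.7%, against 4.19% of all genes), Crp (C-reactive protein), Orm1 and Hp (haptoglobin), and 1 rose, Itih4 (5.56%, against 1.7% of all genes). Crp was at 0.549, 6.06, 0.756, 0.52 and 0.358 CPM and at 0.316, 0, 0.188 and 0.0785 CPM (-3.71 ± 0.98, adjusted p = 0.00819), mostly in LPS-vehicle mouse 2, and was not called by limma-voom. DESeq2 gave it no p, and without LPS-vehicle mouse 2 it did not pass the filter on low counts. Orm1 (-2.27 ± 0.77) was not called without LPS-CPD-4645 mouse 1, 2 or 4 (-1.97, -1.91, -2.57). It had a value in only 9 of the fits that left out a single mouse, and was not tested in the others. Itih4 was at 0 to 0.358 CPM and 0.753 to 2.48 CPM (2.67 ± 0.65, adjusted p = 0.00487), and without LPS-vehicle mouse 2 the falls of the list numbered 1. Saa3 (-0.95 ± 0.40) and Serpina3n (0.64 ± 0.20) were not called.

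Some raised genes at moderate levels were picked after their values were seen. Sox4, a transcription factor of progenitor cells, was at 33.6, 33.5, 32.1, 30.6 and 34.2 CPM in LPS-vehicle and at 130, 106, 156 and 171 CPM in LPS-CPD-4645 mice, and sham-vehicle mice were at 38.8 CPM ± 7.86 (SD, n = 4) (2.10 ± 0.13, adjusted p = 1.02e-07). The treated mice were far outside the range of the other groups. The noncoding gene Gm26735 on its opposite strand also rose (3.99 ± 1.08), a call lost without LPS-CPD-4645 mouse 3 (2.93), and was at 6.74 without LPS-vehicle mouse 5. Without the strand, reads of the pair cannot be told apart. Dio2, the enzyme that activates thyroid hormone, was at 39.1, 22.2, 21.7, 19.1 and 15.3 CPM and at 61.4, 95.5, 89.7 and 93.6 CPM (1.86 ± 0.21, adjusted p = 1.14e-05), and Igfbp3, a carrier of insulin-like growth factors, went from 60.8 CPM ± 9.49 (SD, n = 5) to 142 CPM ± 24.9 (SD, n = 4) (1.22 ± 0.14, adjusted p = 1.21e-05), against 22.5 CPM ± 4.92 (SD, n = 4) in sham-vehicle mice.

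In the Wnt list of 35 genes the ligand Wnt3 rose and the ligand Wnt2 fell (2.86% each, against 1.7% and 4.19% of all genes). Wnt3 was at 8.65, 11.2, 8.7, 11 and 11 CPM in LPS-vehicle and at 21, 26.7, 32.6 and 22.9 CPM in LPS-CPD-4645 mice (1.35 ± 0.14, adjusted p = 5.85e-06), and Wnt2 went from 5.6 CPM ± 1.16 (SD, n = 5) to 2.1 CPM ± 1.11 (SD, n = 4) (-1.37 ± 0.31, adjusted p = 0.00265). Both pairs of groups were apart, and the other 33 genes of the list were not called. Hmgb2, a chromatin protein of dividing cells, was the 1 of 21 cell cycle genes that rose (4.76%, against 1.7%), from 3.91 CPM ± 1.2 (SD, n = 5) to 10.9 CPM ± 2.88 (SD, n = 4) (1.48 ± 0.27, adjusted p = 5.93e-04).

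Transcripts of the targeted enzyme and its relatives were not called. Mgll was at 119, 118, 102, 104 and 136 CPM in LPS-vehicle and at 122, 123, 110 and 108 CPM in LPS-CPD-4645 mice (0.00 ± 0.09, adjusted p = 0.987), Abhd6 was at -0.02 ± 0.11 and Faah at -0.07 ± 0.08. As the compound acts on the protein, these levels are no check of its inhibition. Of 20 endocannabinoid genes 1 fell (5%, against 4.19% of all genes). Fabp7, a lipid-binding protein of astrocytes, went from 18.7 CPM ± 7.04 (SD, n = 5) to 8.3 CPM ± 1.48 (SD, n = 4) (-1.16 ± 0.24, adjusted p = 0.00162), and was not called without LPS-vehicle mouse 1 (-0.97), nor by limma-voom. The cannabinoid receptors Cnr1 (-0.13 ± 0.11) and Cnr2 (0.21 ± 0.62) were not called. In the prostanoid and leukotriene list, Alox5ap, Ptges (the inducible prostaglandin E synthase) and Ephx2 (soluble epoxide hydrolase) fell among 32 genes (9.38%, against 4.19%). Ptges was at 31.4, 45, 52.3, 19.6 and 17.2 CPM and at 18.4, 17.1, 12.6 and 10.5 CPM, groups that overlap (-1.17 ± 0.28, adjusted p = 0.00473), and was not called without LPS-vehicle mouse 3 (-0.96), and Ephx2 (-1.03 ± 0.17) was not called without LPS-vehicle mouse 5 (-0.98) or treated mouse 2, 3 or 4 (-0.96, -0.92, -0.99).

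All 32 oxidative phosphorylation genes had fold changes above 0, against 47.8% of all genes, with a median of 0.31 and a range from 0.02 to 0.59 on the log2 scale, and in 11 of them every treated mouse was above every LPS-vehicle mouse (34.4%, against 11.1% of all genes). At an unadjusted p under 0.05, 21 were higher (65.6%, against 19.4% of all genes) and 0 lower, and edgeR, limma-voom and DESeq2 called 0 at 2-fold. Atp5b, the catalytic subunit of ATP synthase, was at 943 CPM ± 155 (SD, n = 5) and 1224 CPM ± 66.5 (SD, n = 4) (0.38 ± 0.11, adjusted p = 0.0118). The 30 cytosolic ribosomal protein genes had a median of 0.15 and the 22 cholesterol synthesis genes one of 0.19; edgeR, limma-voom and DESeq2 called 0 in both, with 8 and 7 higher (26.7% and 31.8%, against 19.4% of all genes) and 0 and 1 lower (22% of all genes) at an unadjusted p under 0.05. Of 26 immediate early genes edgeR called 0 (median -0.22), limma-voom 0 and DESeq2 1 lower, with 6 lower at an unadjusted p under 0.05 (23.1%, against 22% of all genes).

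The lists covered a small part of the response. Of the 725 genes that fell 97 were in any list (13.4%), of the 294 that rose 26 (8.84%), and of the 17285 tested 1034 (5.98%).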

How the data were processed

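RNA-seq was read in 13 mice, 9 of which enter this comparison. Per the labels and the study's methods, the authors extracted RNA from isolated brain vessels, built stranded mRNA libraries, aligned reads to mm10 with STAR 2.5.2a (demultiplexing by bcl2fastq 2.15.0.4) and deposited raw read counts per GENCODE M9 gene. The strand setting of the counting is not given in the sources used here, so overlapping genes may share reads. Gene names came from GENCODE M21, which matched 47224 of 47643 IDs.

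Counts were fitted in edgeR 4.0.16 (R 4.3.3) by the quasi-likelihood test over all 13 mice in 3 groups, with TMM scaling and the default expression filter (10 counts, 15 in total), which left 17285 of 27934 detected genes. Genes past 2-fold whose p, adjusted over all genes by the Benjamini-Hochberg method, did not exceed 0.05 were called. CPM use TMM-scaled library sizes. Total counts of the 9 libraries ran from 7813559 to 55133373, so low genes are least precise in the shallowest; floors and intervals cover counting error only. Each mouse is 1 library. Alternatives were limma-voom (limma 3.58.1, the study's method), sample weights, DESeq2 1.42.0, its size factors, other filters, only the 9 LPS mice, glmTreat, a replicate block and leaving out mice. Scripts were tested on simulated data.

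Members, gene lists and tests were chosen with earlier results of these data known. Named genes were the 12 largest rises and falls among coding genes at 1 CPM or more with groups apart, the 4 largest among noncoding genes, the 8 largest in CPM, up to 4 called genes per list, and those the study names; a few genes are not reported here. All other genes given with values, among them the neutrophil and monocyte markers, Siglech, Map3k6, Sox4, Dio2, Igfbp3 and list members that were not called, were chosen after their values were seen.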

Additional observations from a re-analysis of the deposited data

Results flagged for a closer look

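Among the named genes, 24 of 254 pairs of a gene and an LPS group held 1 mouse whose CPM lay far from the rest of its group by Dixon's criterion, which by chance marks about 1 group in 20. In 10 of the 24 the mouse was LPS-vehicle mouse 2. Each is given with its CPM, the next mouse, and the log2 fold change over LPS-vehicle with all mice and without that mouse. LPS-vehicle mouse 2 was highest in Igfals (0.0717 CPM, next 0, 5.64 and 8.09), Tulp1 (0.143 CPM, next 0, 5.21 and 8.49), Cd177 (5.45 CPM, next 1.13, -4.20 and -3.05), Crp (6.06 CPM, next 0.756, -3.71 and no value), Slfn1 (4.2 CPM, next 1.75, -3.50 and -2.98), Stfa2l1 (4.2 CPM, next 1.13, -3.40 and -2.58), Ltf (11.5 CPM, next 4.03, -3.35 and -2.73), Oasl2 (49.7 CPM, next 19.9, -1.31 and -0.79) and Sele (20.8 CPM, next 9.45, -1.78 and -1.28), and lowest in Grm7 (48.6 CPM, next 59, -1.04 and -1.10). LPS-vehicle mouse 3 was highest in Mylk2 (0.504 CPM, next 0.0821, 3.48 and 4.19) and Cxcl10 (117 CPM, next 22.1, 2.64 and 3.69), and lowest in Itih4 (0 CPM, next 0.305, 2.67 and 2.5). LPS-vehicle mouse 5 was highest in Gm26735 (0.328 CPM, next 0.0179, 3.99 and 6.74), Selplg (29 CPM, next 13.2, -1.73 and -1.33) and F13a1 (4.59 CPM, next 3.4, -1.98 and -1.87). LPS-CPD-4645 mouse 1 was highest in Stfa2 (0.316 CPM, next 0.0392, -4.31 and -5.67), Mir124a-1hg (58.6 CPM, next 39.1, -1.33 and -1.49), Adamts9 (28.9 CPM, next 22.5, -1.23 and -1.32) and Tnfsf8 (15.4 CPM, next 5.39, -1.69 and -2.33). LPS-CPD-4645 mouse 2 was highest in Cxcl10 (433 CPM, next 152, 2.64 and 1.97) and Rsad2 (31.5 CPM, next 16, 1.84 and 1.49). LPS-CPD-4645 mouse 4 was highest in Stfa2l1 (0.471 CPM, next 0.0791, -3.40 and -5.53), and lowest in Tie1 (5.14 CPM, next 8.11, -1.02 and -0.86). Crp did not pass the filter on low counts without LPS-vehicle mouse 1, 2, 3 or 4, so its fold change was not tested without them. Each other fold change kept its sign whichever mouse was left out. Without LPS-vehicle mouse 2 the LPS-vehicle group had 0 counts of Igfals and Tulp1, so these values depend on the prior count. The cause of the single high and low values was not tested.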

How the results depend on the processing

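Against 294 higher and 725 lower genes, the glmTreat test called 30 higher and 35 lower, since it asks for evidence of more than 2-fold, and a mean of at least 50 counts left 123 higher, since it tests fewer genes. Under the other alternatives, among them limma-voom, sample weights, DESeq2 and no filter, both counts stayed within 1.5 times the main ones. They ran from 242 to 336 higher and from 612 to 792 lower as single mice were left out. DESeq2 called 97.4% of the genes called by edgeR in the same direction, and limma-voom 88.1%. With the replicate number as a block, 270 were higher and 669 lower; the numbers do not pair the mice (correlations of same-numbered mice from -0.0218 to 0.0543), so this is a different fit rather than a paired design.

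Of 127 named genes 115 were called, and all of these kept their direction under every alternative that gave a value. By contrast 35 of the 127 stayed on the same side of the threshold under every alternative, and 87 when glmTreat is set aside. The genes that changed sign were not called. Mgll, near 0 throughout, was at 0.01 with DESeq2, with its size factors and with only the 9 LPS mice, at 0.02 with sample weights, at 0.06 with the replicate block and between -0.04 and 0.06 without single mice. Abhd6 was at 0.04 with the block and between -0.11 and 0.05 without single mice, and mt-Co1 between -0.02 and 0.27. The difference in mitochondrial share ran from -0.767 to 0.636 percentage points without single mice. Without the 2 shallowest LPS libraries 299 genes were higher and 832 lower. The calls on Phactr3, Klf9, Map3k6, Mx1, Cyp3a13, Thbs1, Il23a, Il1b, Orm1, Itga4, Cybb, Fpr1, Ccl7 and F8 were lost there and Pecam1 was called. With sample weights those on Ttr, C1qa, Thbs1, Cd14, Ptges, Cyp3a13, Grm7, Padi4, Itga4, Cybb, Fpr1, Ccl7, Cxcl5, F10, Cd300a and Il1b were lost, and with the block those on Mobp, C1qa, Vwf, Il1r2, Sigirr, Mx1, Orm1, Ephx2, Cyp3a13, Sult1a1, Tie1, F8 and Cd300a.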
